A study of Mus musculus with 6 samples.

Results

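The barcodes described here carry marker genes of skin keratinocytes and were captured together with 4T1 mouse mammary tumours. A barcode was taken as a member when it had at least 200 detected genes and at least 4 UMIs (unique molecular identifiers, each standing for 1 tagged RNA molecule) summed over the 7 genes Krt5, Krt1, Krt15, Krt17, Lgals7, Krtdap and Col17a1, with at least 2 of the 7 seen. It also had to hold at most 2 UMIs over the mammary luminal genes Wfdc18, Prlr, Ptn and Clca3a2 and at most 1 UMI over the macrophage genes C1qa, C1qb and C1qc. In all, 82 of 6730 barcodes met the rule, or 1.22%. The rule used the levels of these genes, so their levels in members are given as a description, and no test of them is read.

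The tumours grew in Balb/c mice from 4T1, a carcinoma cell line, and 3 libraries per group were made by Drop-seq. The FVIO-MHT group received ferrimagnetic vortex iron oxide nanorings in the tumour, dosed at 0.1 mg for each cm3, then spent 10 min under a 365 kHz alternating field, and was harvested after 24 h. The PBS group is the control. Its samples carry the same treatment text, and the labels do not say whether PBS tumours were put in the field as well. Libraries held between 678337 and 2207534 UMIs. The labels do not say whether replicates are separate mice, so p-values measure only the spread between these libraries.

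Epidermis is a layered epithelium. Basal keratinocytes divide on the basement membrane, pair keratin 5 with keratin 14 and hold on through hemidesmosomes, of which collagen XVII (Col17a1) is a part. Cells that leave the basal layer replace that pair with keratins 1 and 10, while keratins 6, 16 and 17 mark follicles and wounded or stressed skin. A tumour grown under the skin can be cut out with skin attached, and the labels do not say whether skin was removed.

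Members were unevenly spread over the libraries. FVIO-MHT replicates 1, 2 and 3 held 0, 28 and 1 members, and PBS replicates 1, 2 and 3 held 1, 10 and 42. FVIO-MHT replicate 2 and PBS replicate 3 together held 70 of the 82. The groups overlapped, since each held libraries with at most 1 member and a library with 28 or more. As a share of barcodes with at least 200 genes, members reached 2.67% in FVIO-MHT replicate 2, with a 95% Clopper-Pearson interval of 1.78 to 3.83%. In FVIO-MHT replicate 3 the share was 0.0430% (0.00109 to 0.239%). FVIO-MHT replicate 1 had 0 of 332 barcodes, which allows a share of up to 0.904% by the limit of 3 counts. In PBS replicates 1, 2 and 3, the shares were 0.0926% (0.00234 to 0.515%), 0.684% (0.328 to 1.25%) and 8.71% (6.35 to 11.6%). These intervals and limits cover counting error only.

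The mean share was 0.904% ± 1.53 in FVIO-MHT libraries and 3.16% ± 4.82 in PBS libraries (SD, n = 3 each). The difference of -2.26 percentage points was smaller than the SD of the PBS libraries. A two-sided exact permutation test gave p = 0.5, and with 3 libraries in each group p cannot go below 0.1. PBS replicate 3 decides its direction: without that library the difference was 0.516 points, with 0.904% in FVIO-MHT and 0.388% in PBS. How much skin each piece of tissue carried was not recorded in the labels, and its part in these shares was not tested.

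**Figure D1:**
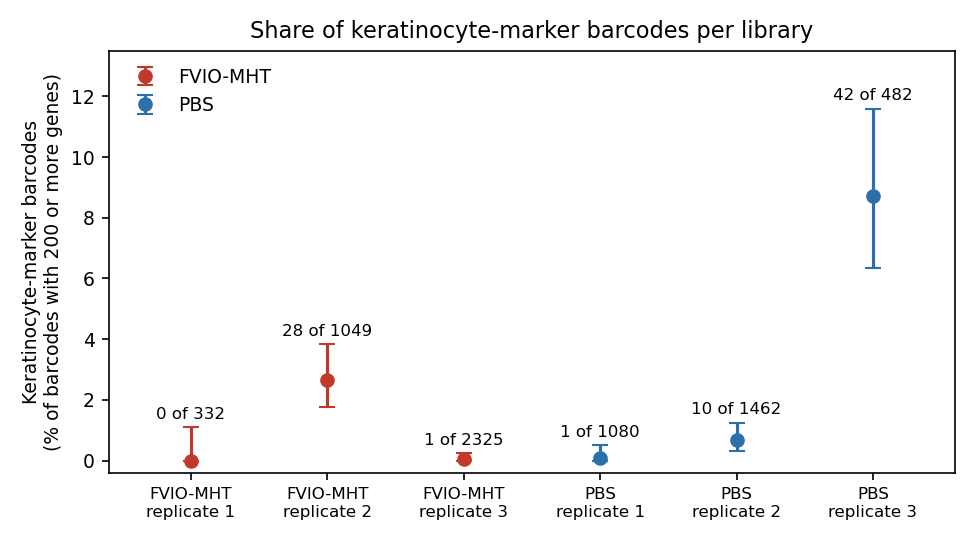
Share of keratinocyte-marker barcodes in each library (y axis, percent of barcodes with 200 or more genes; bars are 95% Clopper-Pearson intervals; the numbers give members of all such barcodes). FVIO-MHT replicate 2 stands at 2.67% and PBS replicate 3 at 8.71%, while the other 4 libraries lie below 0.7%.

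Members were shallow, with 234 to 5572 UMIs and a median of 660. Their rule genes summed to between 4 and 79 UMIs, with a median of 10. Just inside the threshold stood 8 members with a sum of 4, carrying 9 UMIs of Krt14 and 5 of Sfn, which were not in the rule. Just outside stood 12 barcodes with a sum of 3, carrying 12 UMIs of Krt14 and 18 of Sfn. Another 6 barcodes, all from PBS replicate 3, passed on keratinocyte genes but went over the luminal limit. They held 12 UMIs of Clca3a2, 10 of Ptn, 2 of Prlr and 0 of Wfdc18, together with 19 of Sfn and 12 of Perp. The C1q limit kept out 0 barcodes. A further 10 reached the sum on 1 rule gene alone, and these held 52 UMIs of Krt18, 29 of Krt8 and 27 of Vim.

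Not every member matches its name: 12 of the 82 also carry genes that go against it, and 6 others held between 5 and 11 UMIs of erythroid, neutrophil, fibroblast or T and NK cell markers. Grouped by thresholds set after their values were seen, 5 members had at least 3 UMIs summed over Krt8 and Krt18, the keratins of simple epithelium. These came with Spp1 (38 UMIs), Lgals1 (36), Vim (20) and Fn1 (16). They were 1 member of FVIO-MHT replicate 2, the only member of FVIO-MHT replicate 3, and 3 of the 10 members of PBS replicate 2. The FVIO-MHT replicate 2 member is the deepest of all, at 5572 UMIs, or 20.5% of the UMIs of that library's members. Another 7 members, 6 in PBS replicate 3 and 1 in PBS replicate 2, had at least 2 UMIs summed over the contractile genes Acta2, Myh11, Oxtr, Mylk and Tagln. These 7 also carried Cald1 (27 UMIs), Igfbp5 (21) and Acta2 (16), and each had basal keratin or Col17a1 UMIs. The contractile genes named are all on the list of mammary myoepithelial markers tried, and whether the 7 are such cells was not tested. No doublet caller was run, and whether barcodes of either kind hold more than 1 cell was not tested. Some values are given both with and without the 12, or without the Krt8 and Krt18 members alone. The edgeR test was not rerun without all 12.

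Markers of several other cell types were sparse. In members 0 UMIs fell on any of the 9 erythroid, 8 melanocyte or 7 Merkel cell genes tried, and 4 UMIs on 3 of the 10 endothelial genes. Of 10 macrophage genes 3 were seen, and 221 of their 223 UMIs were Apoe, which codes for apolipoprotein E. C1qa, C1qb, Csf1r and Adgre1 were at 0, the first 2 of them limited by the rule itself. Cd207, the defining gene of Langerhans cells, was also at 0. Levels are given in CPM, the UMIs of a gene per 1000000 UMIs of the barcodes summed. Fibroblast genes gave 55 UMIs and neutrophil genes 47, each over 6 of 10 genes, at 776 and 663 CPM in members, against 2611 and 5855 CPM in all other barcodes. Other lists were less sparse. Mammary myoepithelial genes gave 79 UMIs in 27 members, at 1114 CPM, against 322 CPM in all other barcodes. Sebaceous genes, Krt79 among them, gave 50 UMIs, at 705 against 278 CPM. Tumour epithelial genes of 4T1 gave 287 UMIs in 66 members, 106 of them Fxyd3, at 4048 against 6744 CPM.

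Background RNA was estimated from macrophage barcodes, defined by at least 4 UMIs over the C1q genes. In FVIO-MHT replicate 2, 4 of 25 of them (16.0%; median 650 UMIs) had any rule gene UMI and the highest sum was 1. In PBS replicate 2 it was 2 of 66 (3.03%; median 1020 UMIs), with a highest sum of 3, and in PBS replicate 3 it was 1 of 9 (11.1%; median 1487 UMIs). The summed rule genes stood at 20755 CPM in members and 180 CPM in macrophage barcodes of FVIO-MHT replicate 2. They stood at 7076 CPM in members and 50.3 CPM in macrophage barcodes of PBS replicate 2, and at 17757 CPM in members and 79.3 CPM in macrophage barcodes of PBS replicate 3. Barcode sequences were nearly all distinct between libraries. PBS replicates 2 and 3 shared 44, of which 33 had at least 200 genes in both, other pairs shared at most 6, and 0 shared sequences belonged to a member.

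Lgals7, coding for galectin-7 of layered epithelia, was the rule gene seen in most members, 74 of 82. It had 268 and 3 UMIs in FVIO-MHT replicates 2 and 3, against 14, 34 and 209 UMIs in PBS replicates 1, 2 and 3. Among basal genes, Krt5 (chromosome 15, 101707070 to 101712898, GRCm38) gave 259 UMIs in 58 of 82 members, Krt15, found in basal cells and the follicle bulge, 90 UMIs in 33, and Col17a1 57 UMIs in 30. By library, Krt5 had 108 UMIs in FVIO-MHT replicate 2 and 0 in FVIO-MHT replicate 3, against 0, 22 and 129 UMIs in PBS replicates 1, 2 and 3. Krt14, the partner of Krt5 and not a rule gene (chromosome 11, 100203162 to 100207548), had 103 and 3 UMIs in FVIO-MHT replicates 2 and 3, against 0, 18 and 114 in PBS replicates 1, 2 and 3. Krt14 stood at 3357 CPM in members, 96.2 CPM in simple epithelial barcodes (Krt8, Krt18 and Epcam), 25.2 CPM in luminal barcodes and 10.5 CPM in macrophage barcodes. Trp63, the transcription factor that specifies stratified epithelium, gave 18 UMIs spread over 17 members. Its levels were 220 CPM in FVIO-MHT replicate 2 members and 269 and 287 CPM in PBS replicate 2 and 3 members, 2.0 CPM in simple epithelial barcodes, and 0 UMIs in luminal and macrophage barcodes.

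Genes of adhesion accompanied them. Desmosomes, the junctions that bind keratinocytes to each other, were represented by 12 of 16 listed genes, with 413 UMIs in 76 of 82 members. The plaque protein gene Dsp gave 2167 CPM in FVIO-MHT replicate 2 members, against 806 and 1562 CPM in members of PBS replicates 2 and 3. Perp, a membrane protein of desmosomes, gave 1616 CPM in FVIO-MHT replicate 2 members, against 537 and 1435 CPM in members of PBS replicates 2 and 3. PBS replicate 2 was lowest for both, and 3 of its 10 members, with 5368 of their 11165 UMIs, are of the Krt8 and Krt18 kind.

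**Figure D2:**
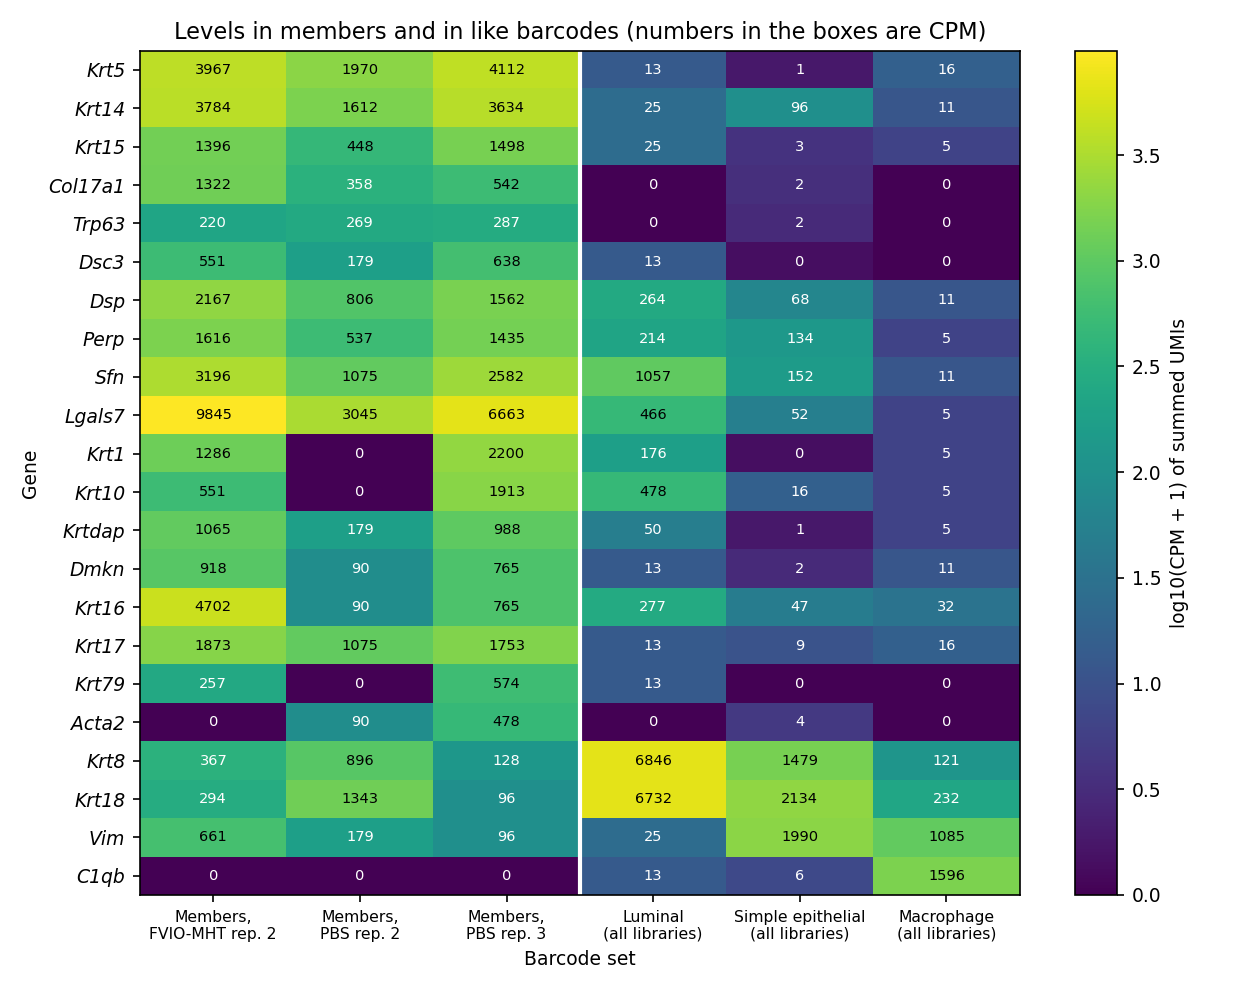
Levels of 22 genes (rows) in members of 3 libraries and in luminal, simple epithelial and macrophage barcodes pooled over all libraries (columns), with colour on a log10(CPM + 1) scale. Krt5 stands at 3967, 1970 and 4112 CPM in the 3 member columns and at most 16 CPM in the others, while C1qb, limited by the rule, is at 0 in members.

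Of 375 genes outside the rule with at least 30 UMIs in members of at least 2 libraries, the 25 with the highest ratio of CPM in members to CPM in all other barcodes ran from 240 times for Dsc3 to 5.42 times for Cxadr. Dsc3, a desmosomal cadherin, had 37 UMIs in 19 members. The others include the water and glycerol channel gene Aqp3 (59.6 times), the secreted epidermal protein gene Dmkn (55.8 times), Sfn, coding for 14-3-3 sigma (22.2 times), the chemokine gene Cxcl14 (22.5 times) and Fabp5, the epidermal fatty acid binding protein (7.60 times). Stfa3 (71.5 times) and BC100530 (32.8 times) were second and ninth; Stfa3 belongs to the stefin family, whose copies are alike, so the assignment of its reads is uncertain. Some of the 25 stood higher in luminal barcodes than in members. Among these were Ly6d (1095 against 874 CPM), F3 (2404 against 705 CPM), Hspb1 (2076 against 1312 CPM) and Cxadr (466 against 437 CPM). Others stood lower in luminal barcodes, such as Dsc3 (12.6 against 522 CPM), Dmkn (12.6 against 748 CPM) and Sfn (1057 against 2567 CPM). Apoe was seen in 56 members, at 3117 CPM, against 700 CPM in all other barcodes and 7968 CPM in macrophage barcodes.

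Differentiation genes were seen in few members, at up to 69 UMIs in a member. Krt1 gave 104 UMIs in 12 members, Krt10 75 UMIs in 8 and Krtdap, a secreted protein of differentiating keratinocytes, 64 UMIs in 14. Basal genes without any of Krt1, Krt10 and Krtdap were seen in 61 members, both kinds in 10, differentiation genes alone in 7 and neither in 4. The 9 members with at least 3 UMIs summed over Krt1 and Krt10 (4 from FVIO-MHT replicate 2, 5 from PBS replicate 3) held 101 of the 104 Krt1 UMIs. The highest in FVIO-MHT replicate 2 had 25 UMIs of Krt1, 4 of Krt10 and 9 of Krtdap beside 24 of Krt14. The highest in PBS replicate 3 had 23 UMIs of Krt1, 32 of Krt10 and 14 of Krtdap with 0 of Krt5 and Krt14.

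These 9 also carried genes the thresholds did not use. Calm4, a calmodulin-like gene of differentiating epidermis, had 26 UMIs in 6 of the 9, at 3944 CPM, against 45.4 CPM in the 57 members outside every such group. Krt16 stood at 18204 CPM in the 9 and 591 CPM in the 57, and Dmkn at 4399 CPM in the 9 and 500 CPM in the 57. The Krt16 level came from 120 UMIs in 6 of the 9. Most of these UMIs were in the FVIO-MHT replicate 2 members, since all members of PBS replicate 3 together held 24. Of 20 late, cornified genes listed, Calm4 among them, 7 had UMIs, summing to 71 in 21 of the 82 members, and 13, including Lor, Flg and Casp14, had 0. Ivl, coding for involucrin of the cornified envelope, had 6.

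The windows of 100 bases before the start of a basal and 2 differentiation genes are shown beside their levels in the 9 and the 57. Krt10 helped to define the 9, and Krt5 and Krtdap are rule genes, so these levels are a description. Krt5 stood at 607 CPM in the 9 and 5476 CPM in the 57, Krt10 at 11226 CPM in the 9 and 22.7 CPM in the 57, and Krtdap at 7282 CPM in the 9 and 273 CPM in the 57. The sequences are from RefSeq (GRCm38.p6; Krt5 at chr15:101712906-101713005, minus strand; Krt10 at chr11:99389365-99389464, minus strand; Krtdap at chr7:30787805-30787904, plus strand). They are printed 5′ to 3′ on the strand of the gene, with matches to TATAAA, the TATA box core, and to TGANTCA, the letters bound by AP-1 factors, in capitals, searched on both strands.
Krt5: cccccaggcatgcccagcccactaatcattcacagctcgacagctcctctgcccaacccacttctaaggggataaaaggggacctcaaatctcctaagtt
Krt10: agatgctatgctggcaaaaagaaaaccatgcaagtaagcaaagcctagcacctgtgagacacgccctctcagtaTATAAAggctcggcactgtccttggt
Krtdap: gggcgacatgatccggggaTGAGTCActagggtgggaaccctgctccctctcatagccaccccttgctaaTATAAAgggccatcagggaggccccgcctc
Krt10 holds TATAAA starting 26 bases before the start. Krtdap holds TATAAA 30 bases and TGANTCA 81 bases before it, and these letters are not in the Krt5 window. Of basal genes not printed, Col17a1 holds TATAAA 91 bases before its start and Krt14 holds neither, so the letters do not divide basal from differentiation genes. Of 27025 such windows 5.95% hold TATAAA and 2.7% hold TGANTCA, and a match is a description of letters only.

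**Figure D3:**
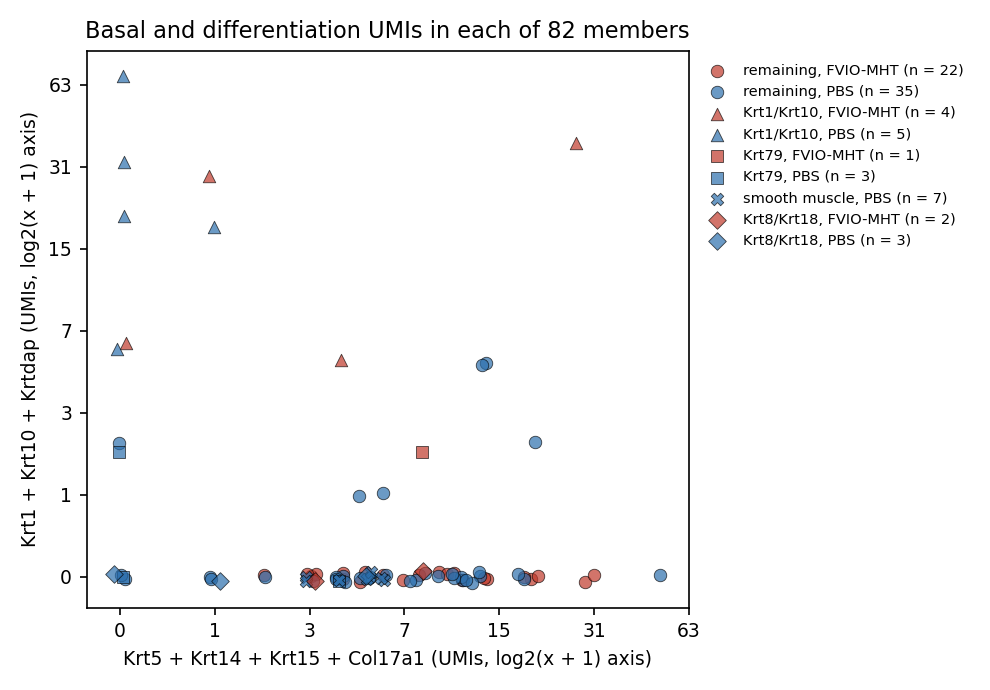
UMIs of Krt1, Krt10 and Krtdap (y axis) against UMIs of Krt5, Krt14, Krt15 and Col17a1 (x axis) in each of the 82 members, on log2(x + 1) axes with small random shifts so that points do not hide each other. Triangles mark the 9 members with at least 3 UMIs of Krt1 and Krt10, 4 of FVIO-MHT and 5 of PBS, while most members lie along the bottom.

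The share of members with any UMI of Krt1, Krt10 or Krtdap was 17.9% in FVIO-MHT replicate 2 (5 of 28; 95% Clopper-Pearson interval 6.06 to 36.9%), against 10.0% in PBS replicate 2 (1 of 10; 0.253 to 44.5%) and 23.8% in PBS replicate 3 (10 of 42; 12.1 to 39.5%). The intervals overlap. Thinned to 300 UMIs, the shares were 17.9% of 28 members in FVIO-MHT replicate 2 and 21.1% of 38 in PBS replicate 3, with 4 shallower PBS members left out. Macrophage barcodes gave a background of 8.0% in FVIO-MHT replicate 2 (2 of 25) and of 11.1% in PBS replicate 3 (1 of 9). With 1 library per group holding at least 20 members there is no test.

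Of 24 listed hair follicle genes 20 had UMIs, and 59 of 82 members held at least 1 of their UMIs. The list summed to 2990 CPM in members, 2932 CPM in luminal barcodes and 671 CPM in all other barcodes. Its level thus did not set members apart from luminal barcodes. Follicle keratins, seen in 18 of the 82 (Krt25, Krt27, Krt28, Krt35, Krt71, Krt75 and Krt79), were in 3 of 28 members of FVIO-MHT replicate 2, against 2 of 10 in PBS replicate 2 and 13 of 42 in PBS replicate 3. Krt79, a keratin of the upper follicle and sebaceous duct, had 7 UMIs in FVIO-MHT replicate 2, against 0 and 18 in PBS replicates 2 and 3. Krt25, of the inner root sheath, had 0 UMIs in FVIO-MHT replicate 2, against 0 and 14 in PBS replicates 2 and 3. A lone PBS replicate 2 member held all 8 UMIs of Krt35, a keratin of the hair shaft.

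Gene levels under treatment could be set side by side in FVIO-MHT replicate 2 (28 members, 27222 UMIs) and PBS replicate 3 (42 members, 31368 UMIs), the libraries with at least 20 members. With 1 library per group this compares those libraries and not the conditions, and it has no replicate check. Of 512 genes with at least 20 UMIs, 45 differed by 3-fold or more (8.79%), 16 of them higher and 29 lower in FVIO-MHT replicate 2.

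Heat shock genes stood lower in FVIO-MHT replicate 2. Hspa1a, coding for an inducible HSP70, had 2 UMIs in 2 members of FVIO-MHT replicate 2, against 17 UMIs in PBS replicate 2 members and 51 UMIs in 24 members of PBS replicate 3. Its near copy Hspa1b had 10 UMIs in FVIO-MHT replicate 2, against 49 and 71 UMIs in PBS replicates 2 and 3. The FVIO-MHT library lay below both PBS libraries for each gene. Of the transcript of Hspa1a 58.8% of 50-base stretches also occur in Hspa1b, so their split is uncertain. Between FVIO-MHT replicate 2 and PBS replicate 3, Hspa1b stood at 0.162 times (95% interval 0.0746 to 0.316, counting error only).

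Across the heat shock list, 17 of 24 genes had at least 10 UMIs. Of these 6 were 3-fold or more lower, 0 were 3-fold higher, and the median log2 ratio was -1.38. Over all 1196 genes with at least 10 UMIs, 12% passed 3-fold in either direction and the median was -0.06. The 6 are Hspa1a, Hspa1b, the HSP40 gene Dnaja1, the HSP110 gene Hsph1, the mitochondrial chaperonin gene Hspd1 and Cacybp. Without the Krt8 and Krt18 and the contractile members the list's median was -0.87. The other barcodes of these libraries differed the same way: Hspa1a stood at 27.5 CPM in those of FVIO-MHT replicate 2, against 576 and 1274 CPM in those of PBS replicates 2 and 3. The lower level was thus not limited to members, and no test of a difference between members and other barcodes was run.

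Krt16, a keratin of stressed skin, and the chemokine genes Cxcl9 and Cxcl10 stood higher in FVIO-MHT replicate 2, in few members. Krt16 had 128 UMIs in 10 members of FVIO-MHT replicate 2, against 1 UMI in PBS replicate 2 and 24 UMIs in 7 members of PBS replicate 3. It was 6.15 times as high as in PBS replicate 3 (3.95 to 9.94), and a lone member held 51 of the 128 UMIs. Without members holding 5 or more UMIs of those other cells' markers it had 77 UMIs in FVIO-MHT replicate 2, against 24 UMIs in PBS replicate 3, a log2 ratio of 1.77. The 9 members with at least 3 UMIs of Krt1 and Krt10 held 120 Krt16 UMIs. All PBS replicate 3 members held only 24, so most of the 120 lay in the 4 such members of FVIO-MHT replicate 2. PBS replicate 2 had 0 such members, and the part of this mix of members was not tested. Krt6a, another keratin of stressed skin, had 6 UMIs in FVIO-MHT replicate 2, against 0 and 15 UMIs in PBS replicates 2 and 3. Krt14 transcripts share 11% of their 50-base stretches with Krt16. Cxcl9, coding for an interferon-gamma induced chemokine, had 29 UMIs in 4 members of FVIO-MHT replicate 2, 16 of them in a lone member, against 1 and 2 UMIs in PBS replicates 2 and 3. Cxcl10, its relative, had 23 UMIs in 5 members, against 0 and 2 UMIs in PBS replicates 2 and 3. Cxcl9 in the other barcodes stood at 252 CPM in FVIO-MHT replicate 2, against 151 CPM in PBS replicate 2 and 280 CPM in PBS replicate 3, so the order seen in members was not that of the whole library.

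Some differences rested on other members or on 1 PBS library. Gbp2b, an interferon-induced GTPase gene, had 36 UMIs in 8 members of FVIO-MHT replicate 2, against 10 UMIs in PBS replicate 2 and 0 in PBS replicate 3, or 1322 CPM in FVIO-MHT replicate 2 members, against 896 CPM in those of PBS replicate 2. Vim had 18 UMIs in FVIO-MHT replicate 2, 17 of them in the deep Krt8 and Krt18 member, against 3 UMIs in PBS replicate 3. Of 28 UMIs of Spp1 in FVIO-MHT replicate 2 that member held 26. Spp1 stood at 1029 CPM in FVIO-MHT replicate 2 members, against 1075 and 159 CPM in those of PBS replicates 2 and 3. Without the Krt8 and Krt18 members Vim had 1 UMI in FVIO-MHT replicate 2, against 3 UMIs in PBS replicate 3, and Spp1 had 2 UMIs, against 5 UMIs. Cald1, lower at 5 UMIs in FVIO-MHT replicate 2 and 31 UMIs in PBS replicate 3, had 0 UMIs, against 5 UMIs, without them and the contractile members. Emp1 had 37 UMIs in 17 members of FVIO-MHT replicate 2, against 10 UMIs in PBS replicate 2 and 6 UMIs in 5 members of PBS replicate 3. Scaled, that is 1359 CPM, against 896 and 191 CPM in PBS replicates 2 and 3. Against PBS replicate 3 it kept a log2 ratio of 2.59 without the Krt8 and Krt18 and the contractile members. Ccl27a, the keratinocyte chemokine gene that draws T cells to skin, had 3 UMIs in FVIO-MHT replicate 2, against 0 and 21 UMIs in PBS replicates 2 and 3.

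Antigen presentation genes stood mostly higher in FVIO-MHT replicate 2 than in PBS replicate 3, though their sum was not higher than in PBS replicate 2. Of 13 with at least 10 UMIs, 10 had a positive log2 ratio against PBS replicate 3, 4 passed 3-fold upwards and the median was 0.73, or 0.49 without the Krt8 and Krt18 and the contractile members. Over all 1196 genes 46.2% had a positive ratio and 74 passed 3-fold upwards. The whole list summed to 17853 CPM in members of FVIO-MHT replicate 2, against 18988 CPM in those of PBS replicate 2 and 11094 CPM in those of PBS replicate 3. Against PBS replicate 2 the genes went both ways. H2-D1 (5033 against 6628 CPM) and H2-K1 (2425 against 3224 CPM) were lower in FVIO-MHT replicate 2. B2m (5033 against 4210 CPM) and Psmb8 (735 against 537 CPM) were higher. Of the 10 members of PBS replicate 2, 3 are of the Krt8 and Krt18 kind. Cd74, the class II invariant chain gene, had 27 UMIs in 12 members of FVIO-MHT replicate 2, against 10 UMIs in PBS replicate 2 and 7 UMIs in 3 members of PBS replicate 3. Scaled, that is 992 CPM, against 896 CPM in PBS replicate 2 and 223 CPM in PBS replicate 3. In the other barcodes Cd74 ran the other way, at 1886 CPM in FVIO-MHT replicate 2, against 2436 CPM in PBS replicate 2 and 3083 CPM in PBS replicate 3. The 6 Langerhans and skin T cell markers in the table, Cd74 among them, summed to 1286 CPM in FVIO-MHT replicate 2 members, against 1254 CPM in PBS replicate 2 members and 383 CPM in PBS replicate 3 members, with Cd207 and Cd7 at 0. Their part in the class II values was not tested. The interferon list, with 5 genes, had a median of 1.01. It was 0.12 without the Krt8 and Krt18 members and 0.27 without those and the contractile members. Its 21 genes summed to 3086 CPM in FVIO-MHT replicate 2 members, against 4030 CPM in PBS replicate 2 members and 2136 CPM in PBS replicate 3 members.

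Other lists varied with the members taken in. Stress keratins and alarmins had a median log2 ratio of 0.20 over 9 genes, 0.53 without the Krt8 and Krt18 members and 0.95 without those and the contractile members, with Krt16, Krt6b and S100a9 3-fold or more higher and Serpinb2 3-fold lower. Like Krt16, Krt6b lay mostly in the 9 members with Krt1 and Krt10, with 14 UMIs in 3 of them. S100a9 is also a neutrophil gene, and the neutrophil list summed to 955 CPM in FVIO-MHT replicate 2 members, against 0 in PBS replicate 2 members and 319 CPM in PBS replicate 3 members, with Cxcr2 and Retnlg at 0. Its part was not tested. Immediate early genes had a median of -0.06 over 18 genes, and iron and antioxidant genes 0.05 over 7, with 0 genes past 3-fold in either. Fth1, the ferritin heavy chain gene, had 123 UMIs in FVIO-MHT replicate 2, against 30 and 69 UMIs in PBS replicates 2 and 3, or 4518 CPM, against 2687 and 2200 CPM. This was not limited to members: in the other barcodes Fth1 stood at 17760 CPM, against 6551 and 8655 CPM in PBS replicates 2 and 3. Ftl1, the ferritin light chain gene, went the other way in members, at 404 CPM, against 985 and 988 CPM. Cell cycle genes had a median of -1.21 over 7 genes, 0 of them past 3-fold, and -0.41 without the Krt8 and Krt18 and the contractile members. Basal genes were at -0.02 over 13, or 0.27 without those members, and desmosome genes at -0.21 over 10, or -0.085 without them. Hair follicle genes were at -0.80 over 7, or -0.02 without those members.

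**Figure D4:**
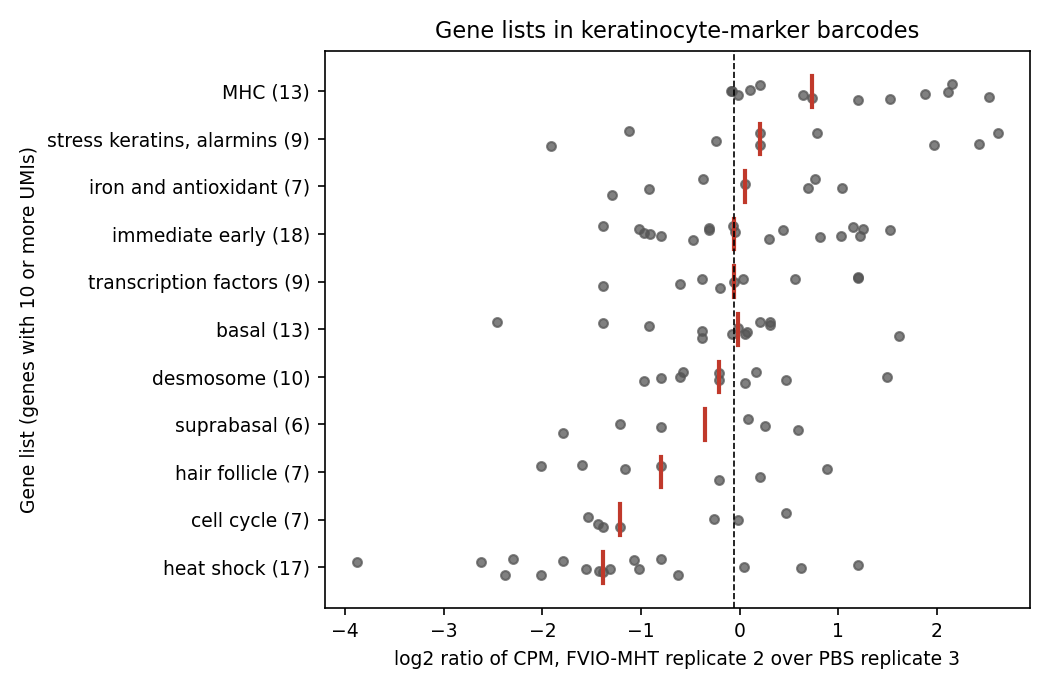
Log2 ratio of CPM, FVIO-MHT replicate 2 over PBS replicate 3, for each gene with at least 10 UMIs (points), by gene list (rows; number of genes in brackets), with the list's median as a red bar and the median of all genes as a dashed line. All members of both libraries are taken in. Heat shock genes have a median of -1.38 and MHC genes one of 0.73, against -0.06 over all genes.

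Taking in the libraries with at least 10 members gave 1 FVIO-MHT library against 2 PBS libraries and allowed a test that assumes the lone library to vary like the PBS ones. By edgeR's quasi-likelihood test with Benjamini-Hochberg adjustment, 8 of 695 genes passed an adjusted p of 0.05 (1.15%), 4 higher and 4 lower in FVIO-MHT. They include Lgals7, a rule gene, whose call is not read as a result. At an unadjusted p of 0.05, 32 genes passed (4.6%). Krt16 rose with a log2 fold change of 3.27 ± 0.60 (SE; adjusted p = 1.98e-05), and Cxcl9 with 3.87 ± 1.05 (adjusted p = 0.0299). Most Krt16 UMIs lay in the members with Krt1 and Krt10, a kind that PBS replicate 2 lacked. Cxcl14, with 83 UMIs in FVIO-MHT replicate 2 against 3 and 26 in PBS replicates 2 and 3, changed by 2.39 ± 0.66. Hsp90aa1, the inducible HSP90 gene, had 33 UMIs in FVIO-MHT replicate 2 against 117 and 102 in PBS replicates 2 and 3 and changed by -2.37 ± 0.43. Scaled, that is 1212 CPM, against 10479 and 3252 CPM, so the PBS libraries lay far apart. Of the 10 members of PBS replicate 2, 3 are of the Krt8 and Krt18 kind. In the other barcodes Hsp90aa1 stood at 2321 CPM in FVIO-MHT replicate 2, against 8816 and 5650 CPM in PBS replicates 2 and 3. Hspa1b changed by -3.04 ± 0.69 (adjusted p = 0.00298) and Hspa1a by -4.25 ± 1.11 (adjusted p = 0.0252). Malat1, a nuclear RNA, changed by -0.55 ± 0.15.

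Of 17 heat shock genes tested by edgeR, 3 passed, all lower. Of 8 stress keratin and alarmin genes 1 passed, and 0 passed of 11 MHC, 3 interferon, 14 immediate early, 6 iron and antioxidant and 4 cell cycle genes, with 0, 0, 1, 1 and 0 at an unadjusted p of 0.05. DESeq2 called 0 genes on the same libraries, with 7 at an unadjusted p of 0.05. With only 1 FVIO-MHT library holding members in number, treatment and library cannot be told apart.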

How the data were processed

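The authors deposited raw UMI counts for each gene in each barcode. STAR 2.7.2b and the mm10 build are named in the submitters' processing notes. The sources used here give no counting tool, strand setting or way of choosing the 5000 barcodes per library. Gene symbols listed more than once (65 rows with identical counts) were counted once, leaving 27933 genes. Members and gene lists were chosen with earlier results of these data known. UMIs were summed over members per library and scaled to CPM. Libraries with at least 20 members, 1 per group, were set side by side with a 3-fold limit, and in ratios and their medians counts under 3 were set at 3. Genes named are the rule genes, the leading members of each list, the 25 highest ratios and the 10 genes with the largest ratio in each direction, since this comparison gives no p to rank by. Libraries with at least 10 members were tested with edgeR 4.0.16 (TMM, filterByExpr; R 4.3.3) and DESeq2 1.42.0. On simulated counts for 695 genes, edgeR found 17% of genes changed by 2 and 64% of those changed by 4 on the log2 scale, with 4 false calls. The simulated libraries were drawn with a common spread and no library effect. The simulation therefore cannot test the assumption that the lone FVIO-MHT library varies like the PBS ones. Shares were compared by exact permutation (scipy 1.17.1). Gene lists gave medians and counts, without a set test. Doublets were not called.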

Additional observations from a re-analysis of the deposited data

How the results depend on the processing

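The difference in member share (FVIO-MHT minus PBS, -2.26 points) kept its sign under the 9 other limits on genes, markers, other cells and depth, and each of them also missed the threshold, which an exact permutation test of 3 against 3 libraries cannot reach. Leaving out each library in turn gave -3.79 to 0.516 points, and the sign turned without PBS replicate 3, at 0.516. Pairing libraries by replicate number (exact sign-flip test) left the difference at -2.26 with p = 0.75, where the smallest p is 0.25. Nothing in the labels says that the numbers pair libraries, and the paired differences were -0.0926, 1.99 and -8.67 points. The share with differentiation genes was lower in FVIO-MHT replicate 2 than in PBS replicate 3 under 3 alternatives too, while that of PBS replicate 2, at 10.0%, lay below both. The 45 genes past 3-fold became 43, 36 and 40 with other limits on members, and 31 (15 higher, 16 lower) without the Krt8 and Krt18 and the contractile members, a choice made after seeing the data. The 8 genes called by edgeR became 0 with DESeq2 (7 at an unadjusted p of 0.05), 0 with edgeR without a filter beyond 1 UMI (80 at an unadjusted p of 0.05, over 8670 genes), 4 (1 higher, 3 lower) without members holding 5 or more UMIs of other cells' markers, and 6 to 10 under the others. No paired analysis was possible for the genes because the groups shared only 1 replicate number among libraries with enough members, and leaving out a library left no residual degrees of freedom or no FVIO-MHT library. Depth limits every value: members had a median of 660 UMIs.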

Other observations

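Rule gene UMIs were not limited to members. Of all UMIs of the 7 rule genes in a library, members held 48.7% (FVIO-MHT replicate 2) or 51.2% (PBS replicate 3). In barcodes with fewer than 200 genes the level of the rule genes was 1.90, 1014 and 30.4 CPM for FVIO-MHT replicates 1, 2 and 3, against 9.97, 98.9 and 1451 CPM for PBS replicates 1, 2 and 3. Of these shallow barcodes, 16 from FVIO-MHT replicate 2 and 6 from PBS replicate 3 reached the marker minimum. The 2 libraries with the most members were thus also those with the most keratinocyte RNA in shallow barcodes.

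The only member of PBS replicate 1 had 340 UMIs, with 14 of Lgals7, 5 of Krt17, 3 of Dmkn and 2 of Krtdap and 0 of Krt5 and Krt14. Another 11 of its UMIs fell on neutrophil markers.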
